A study of Mus musculus with 4 samples.

Results

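The 10 genes described here are textbook markers of astrocytes that carry out transport or define the cell type: the glutamate transporters Slc1a2 and Slc1a3, glutamine synthetase (Glul), the water channel Aqp4, the bicarbonate transporter Slc4a4, the intermediate filament genes Gfap and Vim, the transcription factor Sox9, the folate enzyme gene Aldh1l1 and the neurotensin receptor Ntsr2. They were chosen by name, and each matched 1 gene ID, so all 10 were found among 52636 genes. RNA-seq was run on cells of the corpus callosum, the large white matter tract of the forebrain, from Mertk_KO mice after 4 weeks on chow with 0.2% cuprizone, a copper chelator that kills oligodendrocytes. The groups were AnnexinV-positive cells (2 libraries), which bound annexin V, a protein that marks the phosphatidylserine exposed by dying cells, and AnnexinV-negative cells (2 libraries), which did not bind annexin V, and both groups carried the same genotype, diet and time. The labels name no other sort gate, and they do not say whether the libraries of a group came from separate animals or pools, so the p-values given rest on a spread that may be technical. The labels give no strain, age or sex, and no wild-type library was analysed.

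Astrocytes clear glutamate from around synapses and axons through Slc1a2 and Slc1a3 and turn it into glutamine with Glul. Their endfeet on vessels hold Aqp4 and move ions and bicarbonate. In damaged white matter they become reactive and raise the filament proteins GFAP and vimentin, and in the cuprizone model such gliosis accompanies the loss of oligodendrocytes. Several of the genes are not private to astrocytes: oligodendrocytes and microglia also make Glul, vessel cells and macrophages make Vim, and neural stem cells share Gfap and Sox9.

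The libraries held about 67437000 and 60126000 reads in genes in the AnnexinV-positive group and 50520000 and 43240000 in the AnnexinV-negative group, as recovered from the deposited values. Mertk itself, the receptor through which phagocytes take up apoptotic cells, was at an RPKM (reads per kilobase of gene, scaled for library size) of 62.6 and 53.6 in AnnexinV-positive and 18.8 and 29.9 in AnnexinV-negative libraries, and this does not check the genotype, because exons inside and outside the deletion are summed. RNA of microglia, the resident macrophages of the brain, was far more abundant than that of astrocytes: the 14 homeostatic microglia markers summed to an RPKM of 6070 and 6200 in AnnexinV-positive and 2362 and 2875 in AnnexinV-negative libraries. The 10 astrocyte genes summed to 80.6 and 91.9 in AnnexinV-positive and 121 and 90.1 in AnnexinV-negative libraries. Relative to all deposited RPKM, the 10 genes made up 0.0402% and 0.0422% in AnnexinV-positive and 0.0986% and 0.0746% in AnnexinV-negative libraries. All 10 genes were detected in every library.

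RNA of 5 astrocyte genes was lower in AnnexinV-positive cells. Ntsr2, Sox9, Slc1a2, Aqp4 and Aldh1l1 had log2 fold changes between -1.6 and -1.03, Gfap, Slc1a3 and Vim did not pass the test on the deposited scale, and Glul had a higher mean in AnnexinV-positive cells. Of the 10 genes 9 reached the filter of an RPKM of at least 1 in 2 libraries, and of these 5 were called lower and 0 higher by limma (Benjamini-Hochberg adjusted p under 0.05 over 10927 genes). Among all genes tested, 9.26% were called lower and 30.8% higher. Their 9 log2 fold changes had a median of -1.03, and those of all genes tested a median of 0.45. In bulk samples, fewer astrocytes and less RNA per astrocyte cannot be told apart.

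The scale bears on these calls. On the deposited scale 3364 genes were higher and 1012 lower. After centring libraries on the median of the genes tested (the centred scale), the split was 1133 and 1184 and 6 of the 9 astrocyte genes were lower, where 10.8% of all genes were; the median of all genes then stood at 0.13. On the TPM scale, with each library rescaled to an equal sum, the split was 114 and 2104 and 8 of the 9 were lower, where 19.3% of all genes were, with a median of -0.31. Single libraries mattered as well. Leaving out 1 library leaves its group with a lone library that is assumed to vary like the other group, so these calls rest mainly on the spread of 1 pair. Without AnnexinV-positive replicate 1 only Sox9 remained called lower (1 gene), and without AnnexinV-positive replicate 2 or AnnexinV-negative replicate 1 Sox9, Slc1a2 and Ntsr2 remained (3 genes each).

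**Figure D1:**
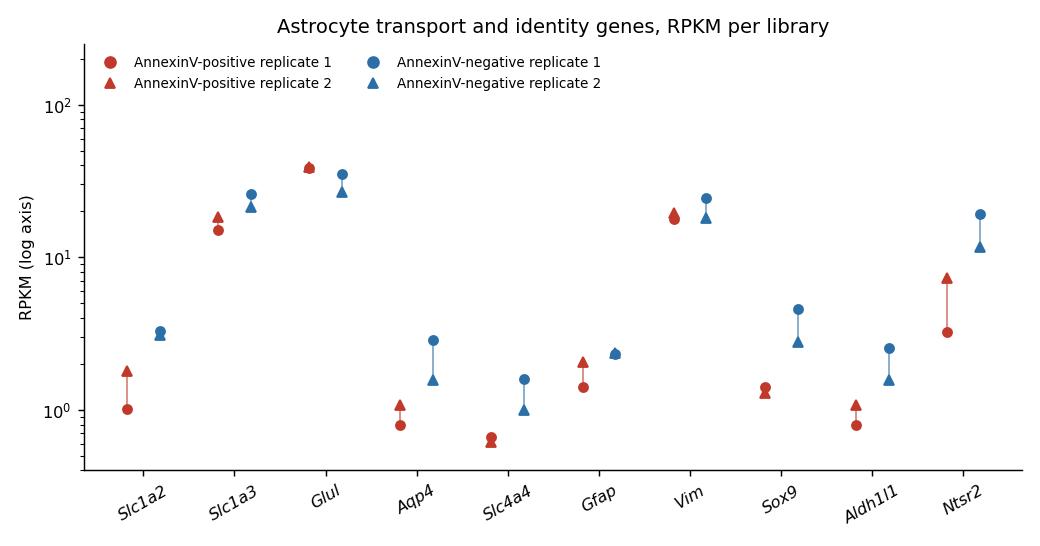
RPKM of the 10 astrocyte genes in each library on a log axis, ordered by role, with AnnexinV-positive libraries in red left of AnnexinV-negative libraries in blue; circles are replicate 1, triangles replicate 2, and lines join the replicates of a group. The AnnexinV-positive values lie below the AnnexinV-negative ones for 8 genes, among them Slc4a4, which was not tested. They overlap for Vim and lie above for Glul (38.3 and 38.8 in AnnexinV-positive, 34.9 and 26.9 in AnnexinV-negative libraries). Of all genes tested, 14.9% lay below and 60.9% above without overlap.

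As levels per gene length, Glul came first in both groups and Slc4a4 last. In AnnexinV-positive libraries the mean RPKM ran from Glul (38.5) through Vim (18.7), Slc1a3 (16.8), Ntsr2 (5.25), Gfap (1.73), Slc1a2 (1.40), Sox9 (1.34), Aldh1l1 (0.937) and Aqp4 (0.934) to Slc4a4 (0.638). In this group the ranges overlapped between Vim and Slc1a3, between Gfap and Slc1a2, between Slc1a2 and Sox9, and between Aldh1l1 and Aqp4, so these neighbours have no set order. In AnnexinV-negative libraries the order was Glul (30.9), Slc1a3 (23.5), Vim (21.2), Ntsr2 (15.4), Sox9 (3.66), Slc1a2 (3.18), Gfap (2.33), Aqp4 (2.21), Aldh1l1 (2.06) and Slc4a4 (1.29), and apart from Glul against Slc1a3, Ntsr2 against Sox9 and Slc1a2 against Gfap, all neighbours overlapped. Glul, Vim and Slc1a3 together made up 88.5% and 83.5% of the summed RPKM of the 10 genes in AnnexinV-positive libraries, against 70.1% and 73.4% in AnnexinV-negative libraries. The other 7 summed to 9.29 and 15.2 in AnnexinV-positive and 36.2 and 23.9 in AnnexinV-negative libraries, with no overlap.

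The glutamate transporters differed in level and in size of change. Slc1a2 (chromosome 2, 102658659 to 102790784, plus strand, GRCm38), which encodes GLT-1, the main glutamate uptake protein of the adult forebrain, had an RPKM of 1.01 and 1.79 in AnnexinV-positive libraries and 3.28 and 3.07 in AnnexinV-negative libraries. Both AnnexinV-positive values were below both AnnexinV-negative ones, and the log2 fold change was -1.18 (SE 0.29, limma adjusted p 0.0195). Slc1a3 (chromosome 15, 8634124 to 8710764, minus strand), which encodes GLAST, a glutamate transporter already made by radial glia, was at 15.1 and 18.4 RPKM in AnnexinV-positive and 25.9 and 21.2 RPKM in AnnexinV-negative libraries. Its groups did not overlap either, but the log2 fold change of -0.49 (SE 0.20, 95% interval -0.96 to -0.01) had a limma adjusted p of 0.0908. On the centred scale Slc1a3 passed at -0.80 (limma adjusted p 0.0288), as it did for TPM at -1.26 (limma adjusted p 0.00335). Within a library, Slc1a3 stood at 14.9 and 10.3 times Slc1a2 in AnnexinV-positive and 7.88 and 6.88 times in AnnexinV-negative libraries, so this ratio of RPKM was higher in both AnnexinV-positive libraries.

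Glul (chromosome 1, 153899944 to 153909723, plus strand), the enzyme that joins ammonia to glutamate, had 38.3 and 38.8 RPKM in AnnexinV-positive and 34.9 and 26.9 RPKM in AnnexinV-negative libraries. The AnnexinV-positive values were the higher ones, yet the log2 fold change of 0.33 (SE 0.19, 95% interval -0.13 to 0.79) did not pass (limma adjusted p 0.204), and it became 0.02 after centring and -0.45 for TPM. Values of AnnexinV-positive libraries above both AnnexinV-negative ones were found for 60.9% of all genes tested, so such a pattern is common on this scale. Glul stood at 37.7 and 21.7 times Slc1a2 in AnnexinV-positive libraries and 10.6 and 8.75 times in AnnexinV-negative libraries. Exons of Glul share 209 bases with Teddm2 and Mir8114 and those of Slc1a2 share 189 bases with Gm13872, and the library kit keeps no strand, so reads there cannot be assigned to 1 gene.

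Among genes of amino acid handling outside the 10, 7 of 10 tested fell, 1 rose and 2 did not pass, with a median log2 fold change of -1.55. Over all genes tested, 9.26% were called lower and 30.8% higher. The neutral amino acid transporter Slc1a4 had 1.15 and 1.97 RPKM in AnnexinV-positive and 6.28 and 5.0 RPKM in AnnexinV-negative libraries, a log2 fold change of -1.83 (limma adjusted p 0.00489). The glycine transporter Slc6a9 was also lower (-2.43, limma adjusted p 0.00424). The member that rose was the mitochondrial enzyme gene Glud1 (0.54 on the deposited scale), which stood at -0.24 on the TPM scale. Slc6a9 shares exon bases with other genes, so its value is uncertain to that extent. The same holds below for Sox8, Synm, Des, Ttyh1, Fgfr3 and Psmb8. It also holds for Csf1r, Kcnj13, Thbs1, Olig1, Cnp, Slc2a1, Stat3 and Gbp2, among others.

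Aqp4 (chromosome 18, 15389496 to 15410982, minus strand), the water channel concentrated in astrocyte endfeet, was at 0.796 and 1.07 RPKM in AnnexinV-positive and 2.87 and 1.56 RPKM in AnnexinV-negative libraries. Its groups did not overlap, with AnnexinV-negative replicate 1 well above the other 3 libraries, and the log2 fold change was -1.11 (SE 0.34, limma adjusted p 0.0374). The call was lost without AnnexinV-negative replicate 1 (-0.69, limma adjusted p 0.128), without AnnexinV-positive replicate 1 (-0.92, limma adjusted p 0.129) and without AnnexinV-positive replicate 2 (-1.31, limma adjusted p 0.0542). Slc4a4 (chromosome 5, 88886818 to 89239653, plus strand), an electrogenic sodium bicarbonate cotransporter, had 0.66 and 0.617 RPKM in AnnexinV-positive and 1.59 and 0.99 RPKM in AnnexinV-negative libraries. It missed the filter on low values and was not tested. With a filter of an RPKM of 0.1 in 2 libraries its log2 fold change was -0.88 (limma adjusted p 0.0792).

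Other genes of ion and water handling at endfeet fell in 8 of 12 tested members, rose in 1 and did not pass in 3, with a median of -1.62. The shares over all genes tested were 9.26% lower and 30.8% higher. The adhesion protein gene Hepacam, partner of the chloride-regulating protein MLC1, had 0.882 and 1.64 RPKM in AnnexinV-positive and 15.1 and 9.63 RPKM in AnnexinV-negative libraries (log2 fold change -3.22, limma adjusted p 0.00136). Car2, the carbonic anhydrase at -4.77 (limma adjusted p 2.98e-04), is also strong in oligodendrocytes, whose 15 mature markers all fell with a median of -4.74 in the same comparison; the part of oligodendrocyte RNA in the Car2 value was not tested.

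Gfap (chromosome 11, 102887336 to 102900912, minus strand), the classical filament of fibrous and reactive astrocytes, was low in all libraries, at 1.41 and 2.05 RPKM in AnnexinV-positive and 2.31 and 2.35 RPKM in AnnexinV-negative libraries. The groups did not overlap, but AnnexinV-positive replicate 2 came close to the AnnexinV-negative pair, and the log2 fold change of -0.43 (SE 0.25, 95% interval -1.02 to 0.16) did not pass (limma adjusted p 0.194). It was called lower on the TPM scale (-1.18, limma adjusted p 0.0138). Vim (chromosome 2, 13573927 to 13582826, plus strand), the vimentin gene of many non-epithelial cells, had 17.9 and 19.5 RPKM in AnnexinV-positive and 24.3 and 18.0 RPKM in AnnexinV-negative libraries. These ranges overlapped, and the log2 fold change was -0.16 (SE 0.21, 95% interval -0.65 to 0.32, limma adjusted p 0.537). On the TPM scale Vim stood at -0.94 (limma adjusted p 0.0166), and without AnnexinV-negative replicate 1 at 0.05 on the deposited scale. Vim was between 7.68 and 12.8 times Gfap in every library, and the ranges of this ratio overlapped between the groups (12.8 and 9.48 in AnnexinV-positive, 10.5 and 7.68 in AnnexinV-negative libraries).

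Of the partner filament genes 4 of 7 were tested: Synm (synemin, -1.88) and Des (desmin, -1.40) fell, Nes (nestin, of progenitors and some vessel cells) rose by 0.76 and Lmna did not pass. The rise of Nes was 0.45 on the centred scale and did not pass there (limma adjusted p 0.213). In the list of reactive astrocyte genes 5 of 11 tested members fell and 5 rose, with a median of -0.29. Of all genes tested, 9.26% were called lower and 30.8% higher. Of the 5 reactive astrocyte genes that rose, 3 were called higher on the centred scale, where Thbs1 and Stat3 lost the call, and 0 on the TPM scale. Those of the list that fell most were Serpina3n, a secreted protease inhibitor, at 0.593 and 0.81 RPKM in AnnexinV-positive against 10.4 and 12.1 RPKM in AnnexinV-negative libraries (log2 fold change -3.83, limma adjusted p 2.49e-04), and the calcium-binding proteins S100a6 (-3.61) and S100a10 (-2.39). Those that rose were C3 (1.33), Psmb8 (1.34), Gbp2 (1.11), Thbs1 (0.97) and Stat3 (0.89), of which C3, Psmb8, Gbp2 and Stat3 are also made by microglia. With libraries centred on microglia markers their values were 0.10, 0.11, -0.12, -0.27 and -0.34 in that order. This scale lowers the fold change of every gene alike, and 11 of 10927 genes were called higher on it. Which cells the RNA of this list came from was not tested, for the genes that fell as for those that rose. Lcn2, Timp1, Osmr, Steap4, Tgm1, Cp and Cd109 stayed under an RPKM of 1 in all libraries and were not tested.

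Sox9 (chromosome 11, 112782224 to 112787760, plus strand), a transcription factor that starts gliogenesis and stays on in adult astrocytes, was at 1.40 and 1.28 RPKM in AnnexinV-positive and 4.55 and 2.78 RPKM in AnnexinV-negative libraries. The groups were clearly apart, the log2 fold change was -1.35 (SE 0.28, limma adjusted p 0.0107), and Sox9 was the one member still called with any 1 library left out, within the limit given above for a lone library. Aldh1l1 (chromosome 6, 90486427 to 90600203, plus strand), the folate dehydrogenase whose promoter drives many astrocyte reporter lines, had 0.794 and 1.08 RPKM in AnnexinV-positive and 2.54 and 1.57 RPKM in AnnexinV-negative libraries. Its log2 fold change was -1.03 (SE 0.31, limma adjusted p 0.0358), and 604 of its exon bases overlap Gm15756 or Gm45901. Ntsr2 (chromosome 12, 16653382 to 16660227, plus strand), a neurotensin receptor enriched in astrocytes, had 3.22 and 7.28 RPKM in AnnexinV-positive and 19.1 and 11.6 RPKM in AnnexinV-negative libraries. It had the most negative fold change of the 9 (-1.6, SE 0.40, limma adjusted p 0.0208) and also the widest gap within the AnnexinV-positive pair, where replicate 2 was 2.26 times replicate 1. Without AnnexinV-positive replicate 1 its log2 fold change was -1.02 (limma adjusted p 0.0531).

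**Figure D2:**
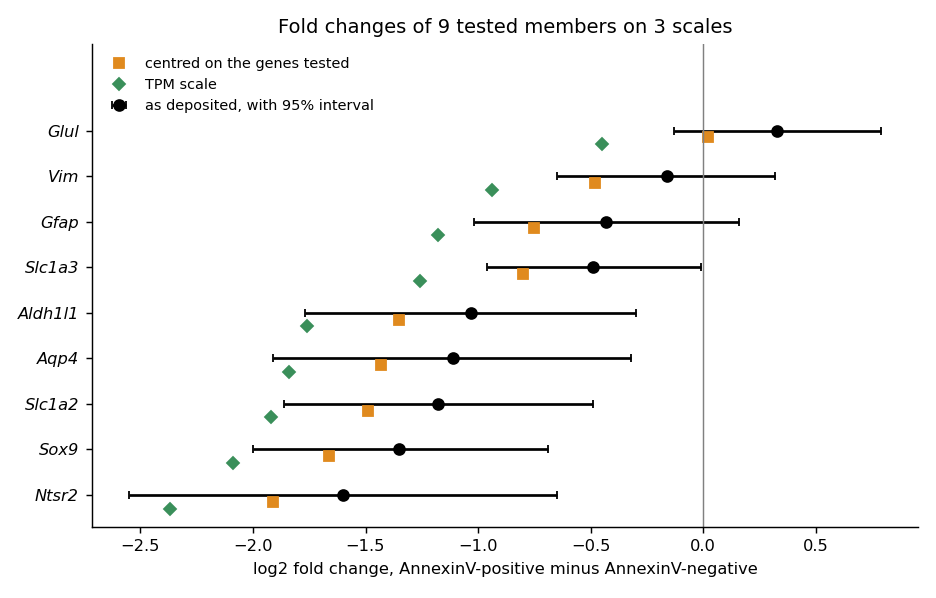
Log2 fold change (x axis, AnnexinV-positive minus AnnexinV-negative) of the 9 tested astrocyte genes on the deposited scale with its 95% interval (black), with libraries centred on the genes tested (orange) and on the TPM scale (green). All 9 shift to lower values in that order, and Glul moves from 0.33 through 0.02 to -0.45.

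Other transcription factors of astroglia fell in 8 of 10 tested members, rose in 1 and did not pass in 1, with a median of -1.20. For this and the next 2 lists, the shares over all genes tested were 9.26% lower and 30.8% higher. Sox2, of neural progenitors and astroglia, had 0.777 and 1.53 RPKM in AnnexinV-positive and 15.1 and 11.1 RPKM in AnnexinV-negative libraries (log2 fold change -3.45, limma adjusted p 9.66e-04). Sox8 (-3.50), which oligodendrocytes also use, and Nfib (-2.41) passed as well, and Hes1, a Notch target, rose by 0.81 but stood at 0.04 on the TPM scale. Among astrocyte surface receptors 6 of 9 tested fell, 0 rose and 3 did not pass (median -1.18), including the glutamate receptor Grm3 (-2.17), the growth factor receptor Fgfr3 (-1.53) and the hedgehog receptor Ptch1 (-1.43). Among genes of astrocyte metabolism 6 of 13 tested fell, 0 rose and 7 did not pass (median -0.94), with the acyl-CoA synthetase Acsbg1 (-1.59), Ttyh1 (-1.57) and the secreted protein gene Mfge8 (-0.98) at the smallest p.

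A promoter window, from 250 bases before to 50 bases after the gene start in RefSeq (GRCm38.p6), was found for 8 of the 10 genes, in 9 windows, and Aqp4 and Sox9 had no entry. The windows of 2 members called lower (Slc1a2, Ntsr2) and of 2 of the 4 tested members not called (Glul, Vim) are shown 5′ to 3′ on the gene's strand, with CG dinucleotides in capitals, because they differ in this feature, and were chosen after their values were seen. The RefSeq start of Slc1a2 lies inside the longer GENCODE gene given above. They lie at chr2:102706188-102706487, chr12:16653220-16653519, chr1:153899679-153899978 and chr2:13574061-13574360, all on the plus strand.
Slc1a2: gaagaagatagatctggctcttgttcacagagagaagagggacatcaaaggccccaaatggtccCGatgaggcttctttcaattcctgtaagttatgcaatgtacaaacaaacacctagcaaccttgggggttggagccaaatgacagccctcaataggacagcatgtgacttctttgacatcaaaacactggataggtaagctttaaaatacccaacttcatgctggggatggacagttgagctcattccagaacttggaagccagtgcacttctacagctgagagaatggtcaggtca
Ntsr2: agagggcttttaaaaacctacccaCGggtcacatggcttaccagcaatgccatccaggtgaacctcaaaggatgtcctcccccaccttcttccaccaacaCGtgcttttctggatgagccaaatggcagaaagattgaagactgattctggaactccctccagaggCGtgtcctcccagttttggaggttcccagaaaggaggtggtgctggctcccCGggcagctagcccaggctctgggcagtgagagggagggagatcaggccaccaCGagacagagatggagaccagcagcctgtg
Glul: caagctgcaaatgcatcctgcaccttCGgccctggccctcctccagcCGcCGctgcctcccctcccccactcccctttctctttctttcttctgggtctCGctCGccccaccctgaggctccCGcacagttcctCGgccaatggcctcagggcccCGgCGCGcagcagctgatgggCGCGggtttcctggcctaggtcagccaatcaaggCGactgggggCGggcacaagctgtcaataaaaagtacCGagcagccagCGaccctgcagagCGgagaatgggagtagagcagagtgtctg
Vim: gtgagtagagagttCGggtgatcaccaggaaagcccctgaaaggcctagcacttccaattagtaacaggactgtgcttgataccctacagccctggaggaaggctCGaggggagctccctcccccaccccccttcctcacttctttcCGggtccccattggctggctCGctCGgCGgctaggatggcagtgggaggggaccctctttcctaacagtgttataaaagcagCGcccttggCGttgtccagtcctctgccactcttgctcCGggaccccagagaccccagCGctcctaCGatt

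The Slc1a2 window held 1 CG, a count that 14.1% of 32851 RefSeq promoter windows did not exceed, and the Ntsr2 window held 5 (43.6%). The Glul window held 17 (70.3%) and the Vim window 11 (60.4%), against a median of 7 over all windows. The feature did not follow the calls: Slc1a3 and Gfap, which were not called either, had 3 each, Aldh1l1, which fell, had 9, and Slc4a4 had 50 in its first window and 3 in its second. The letters TATAAA were found in the Vim window, 32 bases before the start, and in that of Slc1a3, 161 bases before it, as in 13.6% of all windows on either strand. TTCNNNGAA, the core letters bound by STAT proteins, occurred in the windows of Gfap, Slc1a3 and Ntsr2 (3 of 9) and in 8.30% of all windows, and AACAAT, a SOX core, in 0 of 9 and in 10.7%. These matches describe the letters and were not tied to the RNA levels by any test.

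The fold changes of the 10 genes were set beside those of other astrocyte markers. Of 17 tested markers outside the 10, 14 fell, 0 rose and 3 did not pass (F3, S1pr1 and Fabp7), with a median of -1.53. Over all genes tested, 9.26% were called lower and 30.8% higher. The geometric mean RPKM of these 17 markers was 2.40 and 3.57 in AnnexinV-positive and 10 and 6.80 in AnnexinV-negative libraries, so replicate 2 was the higher one in the AnnexinV-positive group and replicate 1 in the AnnexinV-negative group. Among the most abundant of them, Gpr37l1 had 6.90 and 12 RPKM in AnnexinV-positive and 33.4 and 22.9 RPKM in AnnexinV-negative libraries, Aldoc, an aldolase, was at -1.27, and S1pr1, which vessels also make, at 0.17. The connexin genes Gja1 (-1.73) and Gjb6 (-1.39) lay near the median of this list.

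The members were then divided by that geometric mean. Slc1a3 stood at 6.31 and 5.16 times the other markers in AnnexinV-positive and 2.58 and 3.11 times in AnnexinV-negative libraries. Glul was at 16 and 10.9 times in AnnexinV-positive against 3.49 and 3.96 times in AnnexinV-negative libraries. Vim was at 7.49 and 5.46 times in AnnexinV-positive and 2.43 and 2.65 times in AnnexinV-negative libraries, and Gfap at 0.587 and 0.575 in AnnexinV-positive and 0.231 and 0.345 in AnnexinV-negative libraries. These 4 ratios were higher in both AnnexinV-positive libraries. Aqp4 was at 0.332 and 0.30 in AnnexinV-positive and 0.287 and 0.229 in AnnexinV-negative libraries. The ratios of Aqp4, Aldh1l1 and Slc4a4 were closer between the groups, but they too were higher in both AnnexinV-positive libraries, without overlap. The ranges of Sox9, Slc1a2 and Ntsr2 overlapped. Libraries were also centred on the median of the other astrocyte markers, which is not their geometric mean. On that scale limma called Glul (2.03, adjusted p 3.33e-07), Vim (1.54, adjusted p 1.04e-04), Gfap (1.27, adjusted p 0.00725) and Slc1a3 (1.22, adjusted p 0.00207) higher. The other 5 tested, at 0.10 to 0.67, did not pass. On this scale 90.8% of all genes were called higher and 2.88% lower, so a call of higher relative to the other astrocyte markers was the common case. Centring adds the shift of the markers within each pair to every gene, and the SE of Glul rose from 0.19 to 0.39. These adjusted p-values therefore do not measure the spread of each gene by itself.

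**Figure D3:**
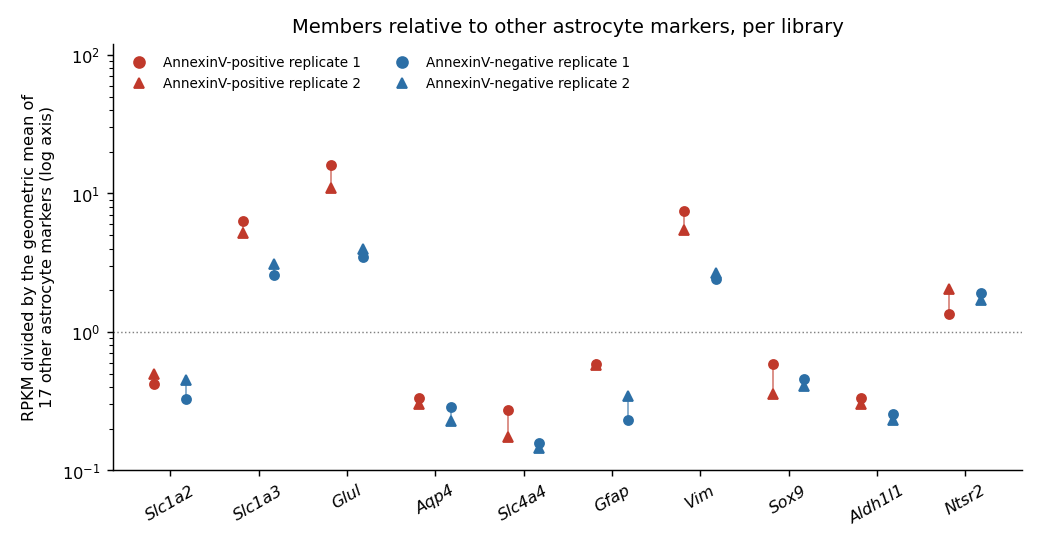
RPKM of each astrocyte gene divided by the geometric mean RPKM of 17 other astrocyte markers in the same library, on a log axis; red is AnnexinV-positive, blue AnnexinV-negative, circles replicate 1 and triangles replicate 2, and the dotted line marks a ratio of 1. Glul, Vim, Slc1a3 and Gfap sit higher in both AnnexinV-positive libraries, as do Aqp4, Aldh1l1 and Slc4a4 by a smaller margin. Sox9, Slc1a2 and Ntsr2 overlap between the groups.

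Markers of other cells moved in the same comparison, in which 9.26% of all genes tested were called lower and 30.8% higher. All 14 homeostatic microglia markers rose on the deposited scale (median 1.24), with none at 0 in any library, but only 1 of the 14 was called higher on the TPM scale (median 0.46). Csf1r and Fcrls, among their most abundant, were at 1.28 and 1.25 on the deposited scale and did not pass for TPM. Mature oligodendrocyte markers, all 15 lower, summed to 46.8 and 34.3 RPKM in AnnexinV-positive and 941 and 518 RPKM in AnnexinV-negative libraries, with Cnp at -3.27 and Mbp at -3.73. Oligodendrocyte precursor markers fell in 7 of 8 tested members (median -3.40), with Olig1, Olig2 and Sox10 at -4.54, -4.81 and -5.14. Cspg4 did not pass (0.55), and Pdgfra, Tnr, Matn4 and Vcan were not tested. How far the values of this list reflect mature oligodendrocytes was not tested. The median of the astrocyte genes was closer to 0 than those of the oligodendrocyte lists, a difference that was not tested.

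Lists for other cells of the tissue gave the following, where 9.26% of all genes tested were called lower and 30.8% higher. Endothelial markers fell in 7 of 10 tested members (median -2.39) and summed to 62.8 and 63.9 RPKM in AnnexinV-positive and 91.3 and 98.0 RPKM in AnnexinV-negative libraries. Cldn5 was at -2.90 and Itm2a at -2.63, while the glucose transporter Slc2a1, which glia also make, did not pass (0.49). Of the endothelial sums, Slc2a1 alone held 52.5 and 48.1 RPKM in AnnexinV-positive and 33.5 and 38.4 RPKM in AnnexinV-negative libraries. Mural or fibroblast markers fell in 4 of 5 tested members (median -3.09), with Vtn at -4.55 and Rgs5 at -3.0, and Acta2 did not pass (-1.38). The fibroblast markers Col1a1, Col1a2, Col3a1, Dcn and Lum stayed under an RPKM of 1 in all libraries and were not tested. This count therefore says little about fibroblasts. All 3 tested markers of neural stem cells or neuroblasts fell: Dlx2 (-4.66), Dlx1 (-4.19) and Sox11 (-2.84). That list of 8 summed to 1.20 and 1.13 RPKM in AnnexinV-positive and 15.7 and 9.96 RPKM in AnnexinV-negative libraries. Dlx2, Dlx1 and Sox11 reached the filter only through the AnnexinV-negative libraries, which favours a fall, and 5 genes of the list were not tested. Of 3 tested neuron genes, Tubb3 (-4.68) and Stmn2 (-3.58) fell and Snap25 (-0.62) did not pass. Tubb3, Stmn2 and the mural marker Rgs5 reached the filter in the same way, and 9 of 12 neuron genes were not tested. Ependymal or choroid plexus markers had 0 of 6 tested members past the test and followed the replicate number instead: their sum was 415 and 62.7 RPKM in AnnexinV-positive and 388 and 23.1 RPKM in AnnexinV-negative libraries, led by Ttr, with Kcnj13 and Kl next. Ttr had 383 and 54.2 RPKM in AnnexinV-positive and 360 and 18.4 RPKM in AnnexinV-negative libraries. The part of these cells in the values of the 10 genes was not tested.

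**Figure D4:**
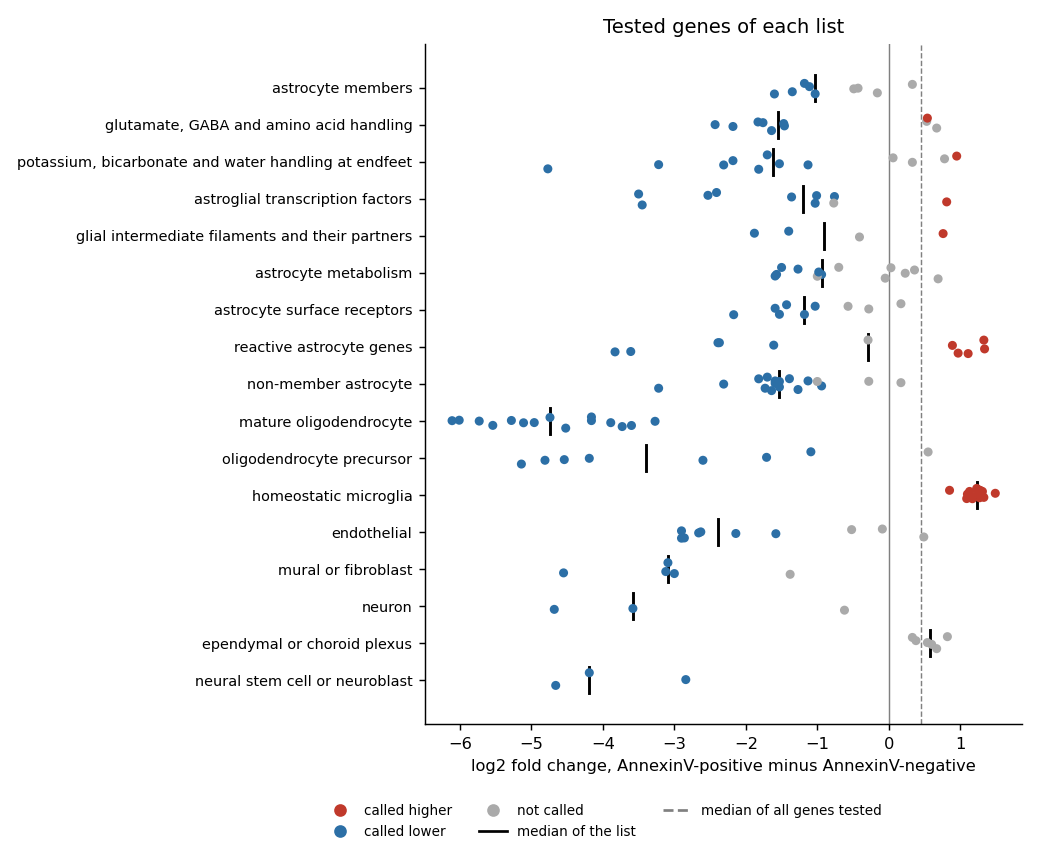
Log2 fold changes (x axis, AnnexinV-positive minus AnnexinV-negative) of the tested genes of each list, 1 point a gene, red where called higher, blue where called lower, grey where not called; the black bar is the median of the list and the dashed line the median of all genes tested (0.45). The median of the astrocyte members is -1.03, that of mature oligodendrocyte markers -4.74 and that of homeostatic microglia markers 1.24.

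The groups of 7 astrocyte genes (Aqp4, Gfap, Slc1a2, Slc1a3, Aldh1l1, Sox9 and Ntsr2) among the 9 tested did not overlap, with the AnnexinV-positive values lower, which held for 14.9% of all genes tested. By rank, 5.86% of all genes tested had a more negative log2 fold change than Ntsr2, 6.73% than Sox9, 11.9% than Gfap, 16.5% than Vim and 40.8% than Glul. Over the 4 libraries, the profile nearest to that of Aqp4, by the root mean square difference of centred log2 values, was that of Fgf1, a fibroblast growth factor gene (0.0466), followed by Aldh1l1 (0.0759), Abhd3 (0.0772), Josd2 (0.106) and Hdac11 (0.106). Nearest to Slc1a3 were Selenok-ps1 (0.0317), Dph3 (0.0333), Gclm (0.0431), Tusc2 (0.0477) and Hnrnph3 (0.0485), of which Selenok-ps1 is named as a pseudogene and may share reads with its parent gene. Among the members, Gfap was the nearest to Slc1a3 (0.140) and Aldh1l1 the nearest to Aqp4, whereas Glul and Ntsr2 were farthest apart (1.05). These distances describe 4 libraries and carry no test.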

How the data were processed

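The deposited files held 1 value for each of 52636 Ensembl genes in each of 4 libraries, with no unit in the header. The submitters' processing notes name GSNAP and the mm10 build; how reads were counted and which gene lengths were used is not given in the sources used here. The values were read as RPKM that the authors had normalized with size factors: using exonic lengths of GENCODE vM21, 62.4% to 63.9% of values below 100 reads in a library came out within 0.01 of a whole read count, and libraries had unequal sums (120680 to 217768) but equal medians of their log2 ratios to the gene means (0.029). About 355 to 26519 reads lay behind each member's value, so counting error was at most about 5.3%. GENCODE vM21 (GRCm38) also gave symbols and positions.

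After a filter (RPKM 1 or more in any 2 libraries) and the transform log2(RPKM + 0.1), limma 3.58.1 (R 4.3.3, intensity trend, no covariate) compared AnnexinV-positive minus AnnexinV-negative libraries. The added 0.1 makes fold changes of low genes too small. A gene low in AnnexinV-positive libraries could pass the filter through the AnnexinV-negative pair alone, which favours a fall among tested genes. An exact permutation test of 2 against 2 libraries cannot go below p = 0.333, so sums and ratios of RPKM carry no test, and genes are tested by limma alone. The script was tested on simulated data. The members and the 16 other lists were chosen with earlier results of these data known. Named were all members, the 3 genes of each process list with the smallest p, the 3 most abundant of each marker list and the 5 genes nearest to Aqp4 and to Slc1a3; some of these are not reported here, and other genes named were chosen after their values were seen. The alternatives were other pseudocounts, filters and scales, no trend, each library left out and a replicate block.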

Additional observations from a re-analysis of the deposited data

How the results depend on the processing

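The count of astrocyte genes called lower was 5, and also 5 with a pseudocount of 1 or 0.01, without the intensity trend and with the replicate block. It was 1 with no filter on low values, 3 with a filter of an RPKM of 0.1, 8 on the TPM scale, 9 centred on homeostatic microglia markers, and 0 (with 4 higher) centred on the other astrocyte markers. Leaving out 1 library leaves its group with a lone library assumed to vary like the other group. Some of the 5 calls were then lost, while all 5 genes kept a negative log2 fold change. Centring on the median of the other astrocyte markers turned the sign of 8 genes by its construction: Aqp4 0.59, Gfap 1.27, Slc1a2 0.52, Slc1a3 1.22, Aldh1l1 0.67, Sox9 0.35, Ntsr2 0.10 and Vim 1.54. The ratios above used the geometric mean of these markers, and there Sox9, Slc1a2 and Ntsr2 overlapped between the groups. Ntsr2 stood at 1.34 and 2.04 in AnnexinV-positive and 1.91 and 1.71 in AnnexinV-negative libraries, so its sign depends on this choice. Glul turned to -0.45 on the TPM scale and to -0.90 centred on microglia markers, and Vim ranged from -0.38 to 0.05 with 1 library left out; the cause was not tested. Of all genes, 3364 were higher and 1012 lower; the counts higher and lower were 1865 and 2489 with no filter, 114 and 2104 on the TPM scale, 9924 and 315 centred on the other astrocyte markers, and 11 and 5587 centred on microglia markers. With the filter of 0.1, 3913 were lower, and on the centred scale 1133 were higher. Leaving out 1 library gave 1297 to 3356 higher. The deviations of same-numbered libraries from their group means had r = -0.215 across genes, and the labels do not say what a number marks, so the numbers were not used as pairs, although ependymal or choroid plexus markers were high in replicate 1 of both groups. With the replicate block 2443 genes were higher and 957 lower; with the numbers crossed, an alternative chosen after seeing the data, 4891 and 1136, with 6 astrocyte genes lower. How far depth and the number of libraries each limit these calls was not tested.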
